A study of Homo sapiens with 12 samples.

Results

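The transcripts described here encode replacement histone variants, the histones that are made throughout the cell cycle and take the place of the histones deposited behind replication forks. Genes were chosen by name: H2AFX, H2AFZ, H2AFV, H2AFY, H2AFJ, H3F3A, H3F3B, H1F0 and H1FX, which are 9 of the 58735 genes in the table. They were measured by mRNA sequencing in TFK1, an established human cholangiocarcinoma cell line (genotype WT). There were 4 groups of 3 libraries, which the labels call biological replicates. Combination cells received nab-paclitaxel at 1.62 ng/ml and 6 Gy of radiation, nab-paclitaxel cells received 1.62 ng/ml, radiation cells received 6 Gy, and control cells were left untreated. RNA was taken 24 h after treatment, and every group stems from the same line, so the values describe 1 tumour cell line. Nab-paclitaxel is an albumin-bound form of paclitaxel, which stabilises microtubules. The question behind the design was how the drug raises the sensitivity of these cells to radiation.

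Most histones are made in S phase from clustered genes whose mRNAs end in a stem-loop in place of a poly(A) tail. Replacement variants are made from single genes with introns or ordinary poly(A) tails, and dedicated chaperones place them at particular sites outside replication. H2A.X carries the phosphorylation that marks DNA double-strand breaks, H2A.Z and H3.3 are enriched at promoters and enhancers, and the linker histone H1.0 accumulates as cells stop dividing and differentiate. In irradiated cells H2A.X is best known through its phosphorylated form, which mRNA sequencing does not measure.

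In brief, H2AFX and H2AFV mRNA fell after radiation, with or without the drug, and neither passed the test with the drug alone. Against control, H2AFX kept its call in 20 of 23 alternative fits with radiation and in 20 with the combination. H2AFV kept it in 21 and 23. For the combination against nab-paclitaxel the calls were kept in 22 fits for H2AFX and 21 for H2AFV. H1F0 mRNA was higher in combination cells than in radiation cells, a call kept in 13 of 23 alternative fits and lost with each other scaling. H2AFY mRNA was nearly level across the 4 groups. H2AFZ, H3F3A, H3F3B and H1F0 had their lowest group mean after radiation alone and their highest after nab-paclitaxel alone, without passing the test in either comparison with control.

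Gene positions and lengths in the table were identical to GENCODE 29 on hg38, and each length is the sum of all bases that any annotated exon of the gene covers. H2AFX (ENSG00000188486, H2A.X) lies on chromosome 11 at 119093854 to 119095467 on the minus strand. H2AFZ (ENSG00000164032, H2A.Z.1) lies on chromosome 4 at 99948086 to 99950388, minus strand, and H2AFV (ENSG00000105968, H2A.Z.2) on chromosome 7 at 44826791 to 44848083, minus strand. H2AFY (ENSG00000113648, macroH2A1) lies on chromosome 5 at 135333900 to 135399914, minus strand, and H2AFJ (ENSG00000246705, H2A.J) on chromosome 12 at 14774383 to 14778002, plus strand. H3F3A (ENSG00000163041) on chromosome 1 at 226061851 to 226072001, plus strand, and H3F3B (ENSG00000132475) on chromosome 17 at 75776434 to 75785893, minus strand, both encode histone H3.3. The linker histone genes are H1F0 (ENSG00000189060, H1.0) on chromosome 22 at 37805093 to 37807436, plus strand, and H1FX (ENSG00000184897, H1.10) on chromosome 3 at 129314771 to 129316277, minus strand. Whether counting used the strand is not given in the sources used here, so reads of a gene and of an overlapping gene on the opposite strand cannot be told apart. The overlapping antisense genes were low, from 0.0276 FPKM for AC097460.1 at H2AFZ to 0.511 FPKM for AL512343.2 at H3F3A. UNK, which overlaps H3F3B on the opposite strand, averaged 6.96 FPKM.

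Values are FPKM, fragments scaled by gene length and by library depth, as the authors deposited them after a further scaling between libraries. The libraries hold 14840283 to 17992242 fragments, recovered from the values, and mitochondrially encoded genes took 11.1% to 16.3% of them. A gene was tested if it averaged at least 1 FPKM over the 12 libraries, as 13609 genes and all 9 members did. Log2 fold changes are on the log2(FPKM + 1) scale and are given with their SE; FPKM means are given with their SD over 3 libraries. A gene is said to have risen or fallen where limma gave a p of under 0.05 after Benjamini-Hochberg adjustment over all genes tested. The labels call the replicates biological but do not say whether they were separate cultures. P-values therefore measure only the spread between these libraries, and what part of that spread is technical was not tested. In a principal component analysis combination 2, nab-paclitaxel 1 and control 2 stood apart from the rest of their groups on component 2, at 3.64, 28.6 and 30.6. Results are given without these 3 libraries where that changes a call. The 3 were picked from these same values because they deviated, so leaving them out tends to narrow the spread. Genes passing for radiation against control went from 807 to 2947, so a pass without them is no independent support. Of 7 biliary epithelial markers 6 averaged at least 1 FPKM (KRT19 419 FPKM, KRT7 only 0.533 FPKM). Of 6 macrophage markers 0 did (highest CSF1R, 0.719 FPKM), and of 6 fibroblast markers 1 did (COL1A1, 5.70 FPKM). The macrophage markers summed to 0.843 to 1.36 FPKM in combination libraries, 0.543 to 0.964 FPKM in nab-paclitaxel libraries, 1.27 to 1.65 FPKM in radiation libraries and 0.715 to 1.15 FPKM in control libraries. The fibroblast markers summed to 3.99 to 4.64 FPKM in combination, 4.53 to 4.89 FPKM in nab-paclitaxel, 6.91 to 7.79 FPKM in radiation and 6.14 to 7.44 FPKM in control libraries, nearly all of it COL1A1, which fell with the combination (-0.59 ± 0.09, limma adjusted p = 0.00128) and with nab-paclitaxel (-0.49 ± 0.09, 0.0120). The biliary markers summed to 1345 to 1702 FPKM in combination, 1183 to 1332 FPKM in nab-paclitaxel, 1104 to 1181 FPKM in radiation and 719 to 905 FPKM in control libraries. KRT19, KRT8, KRT18 and SOX9 rose with the combination and with nab-paclitaxel, KRT19 and SOX9 rose with radiation, and CDH1 fell with the combination and with nab-paclitaxel. The part of these markers in the results below was not tested.

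H1F0 was the most abundant of the 9 transcripts, averaging 276.3 FPKM over the 12 libraries, which ranks it at 76 among the genes tested. H3F3B followed at 99.0 FPKM, H2AFZ at 81.6 FPKM, H2AFX at 55.7 FPKM, H3F3A at 44.8 FPKM and H1FX at 42.6 FPKM. H2AFV averaged 22.3 FPKM, H2AFY 9.22 FPKM and H2AFJ 2.42 FPKM (rank 10465). In control cells the top of this order was separated beyond the spread, since H3F3B (93.1 to 104 FPKM) lay above H2AFZ (75.0 to 85.5 FPKM) in every library. H1FX, at 32.5 to 61.6 FPKM in control cells, overlapped both H2AFX (55.0 to 65.1 FPKM) and H3F3A (40.3 to 46.7 FPKM) and could not be ordered against them. The depth behind these values ranged from 74 to 184 fragments per library for H2AFJ and from 7887 to 15647 for H1F0. Levels per length depend on the annotation: for H2AFY the length used was 17730 bases, while its coding transcript H2AFY-201 has 1881. The 9 transcripts summed to 563 to 660 FPKM in combination libraries, 747 to 827 FPKM in nab-paclitaxel libraries, 490 to 504 FPKM in radiation libraries and 582 to 664 FPKM in control libraries.

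**Figure D1:**
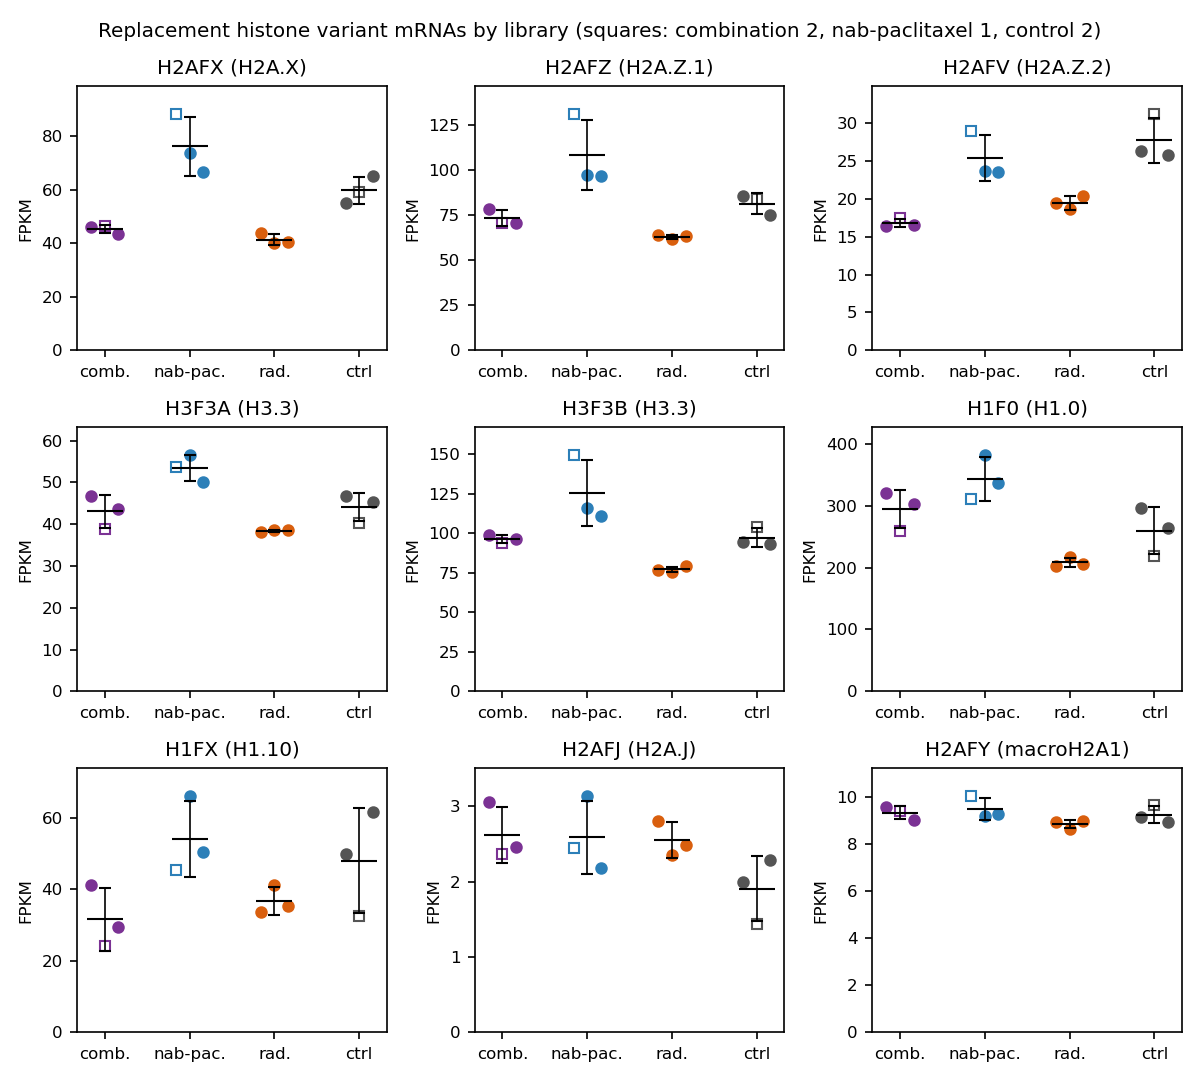
FPKM of the 9 replacement variant genes in each of the 12 libraries, one panel per gene, with groups on the horizontal axis in the order combination, nab-paclitaxel, radiation, control. Points are libraries, squares mark the 3 libraries that stood apart, and lines with bars give the mean and SD of 3 libraries. The 3 radiation libraries lie below the 3 control libraries for H2AFX, H2AFZ, H2AFV, H3F3A, H3F3B and H1F0.

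H2A.X is the substrate of the kinases ATM, ATR and DNA-PK at broken DNA. H2AFX had 46.0, 46.4 and 43.7 FPKM in combination libraries, 88.3, 73.8 and 66.7 FPKM in nab-paclitaxel libraries, 43.7, 40.0 and 40.6 FPKM in radiation libraries and 55.0, 59.4 and 65.1 FPKM in control libraries. All 6 libraries that received radiation lay below all 6 that did not, and nab-paclitaxel alone gave the highest values. How many of all genes tested separate 6 against 6 was not counted. For 3 against 3, radiation lay below control for 16.0% of them and the combination below nab-paclitaxel for 12.3%. H2AFX fell in radiation cells to 41.5 ± 2.01 FPKM, against 59.8 ± 5.08 FPKM in control cells (log2 fold change -0.52 ± 0.10, limma adjusted p = 0.0145). In bulk RNA, fewer cells of a given kind or cycle stage and less mRNA per cell cannot be told apart. It also fell in combination cells, at 45.4 ± 1.48 FPKM, against control (-0.39 ± 0.10, limma adjusted p = 0.0199). Against nab-paclitaxel cells, at 76.3 ± 11.0 FPKM, the combination was lower by a wider margin (-0.73 ± 0.10, limma adjusted p = 0.00376). The rise of the mean with nab-paclitaxel alone did not pass (0.34 ± 0.10, limma adjusted p = 0.0637), although its 3 libraries lay above the 3 control libraries. Combination and radiation cells differed by 0.13, with a 95% interval of -0.10 to 0.36. The call against control was lost for radiation without radiation 2 (limma adjusted p = 0.0730), radiation 3 (0.0664) or control 3 (0.0536), and for the combination without combination 1 (0.0515), combination 3 (0.0743) or control 3 (0.0748). The call against nab-paclitaxel was lost when only those 2 groups were fitted (limma adjusted p = 0.0525).

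The histone stem-loop is the element that replaces the poly(A) tail in replication-dependent histone mRNAs. H2AFX was the only one of the 9 genes whose GENCODE 29 protein-coding transcripts matched the 1 letter pattern searched for it. Transcripts of other types, such as H2AFJ-201 and H2AFJ-202, were not searched. The match is shown because the other 8 genes gave none. Capitals mark the stem-loop of 16 bases, with 5 bases on each side, in transcript H2AFX-202.
H2AFX stem-loop: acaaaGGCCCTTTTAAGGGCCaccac
The site starts at base 555 of this transcript of 1614 bases, and 1044 bases follow it, so the annotated mRNA runs on past the stem-loop. The pattern was found on the transcript strand in 34 of 19669 protein-coding genes and in 31 of 71 genes whose symbol starts with HIST. A gene without a match may therefore still hold a stem-loop. Whether fragments came from mRNAs that end at the stem-loop or from longer ones was not tested, since the table holds 1 value per gene. The 20 HIST genes that were tested summed to 288 to 301 FPKM in combination libraries, 204 to 236 FPKM in nab-paclitaxel libraries, 265 to 275 FPKM in radiation libraries and 148 to 163 FPKM in control libraries. These sums may cover only part of the HIST mRNA, since capture of mRNAs without a poly(A) tail was not tested.

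H2AFZ and H2AFV encode H2A.Z.1 and H2A.Z.2, near-identical proteins that the SRCAP and p400 complexes exchange for ordinary H2A. H2AFV had 16.3, 17.5 and 16.6 FPKM in combination libraries, 28.9, 23.6 and 23.5 FPKM in nab-paclitaxel libraries, 19.4, 18.6 and 20.4 FPKM in radiation libraries and 26.2, 31.1 and 25.8 FPKM in control libraries. As with H2AFX, all 6 irradiated libraries lay below all 6 others, but here nab-paclitaxel cells overlapped control cells. This 6 against 6 separation was likewise not counted over all genes. H2AFV fell in combination cells to 16.8 ± 0.589 FPKM, against 27.7 ± 2.95 FPKM in control cells (-0.69 ± 0.10, limma adjusted p = 8.01e-04), a call kept in all 23 alternative fits of that comparison. It fell with radiation alone to 19.4 ± 0.910 FPKM (-0.49 ± 0.10, limma adjusted p = 0.0153), which was lost without radiation 1 (0.0637) or radiation 2 (0.0794). The combination was lower than nab-paclitaxel alone, at 25.4 ± 3.07 FPKM (-0.56 ± 0.10, limma adjusted p = 0.0108). That call was lost without combination 3 (0.0535) and when only those 2 groups were fitted (0.0794). All 3 combination libraries also lay below the 3 radiation libraries, by -0.20 ± 0.10 (limma adjusted p = 0.236), and this passed without the 3 libraries that stood apart (-0.23, 0.0115). With the drug alone the change was -0.12, with a 95% interval of -0.34 to 0.09.

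H2AFZ had 78.5, 70.8 and 70.7 FPKM in combination libraries, 131, 97.6 and 97.0 FPKM in nab-paclitaxel libraries, 63.9, 61.8 and 63.3 FPKM in radiation libraries and 85.5, 84.0 and 75.0 FPKM in control libraries. Radiation libraries were the lowest and nab-paclitaxel libraries the highest, each without overlap with control, while combination libraries overlapped control. H2AFZ was lower in combination cells, at 73.4 ± 4.50 FPKM, than in nab-paclitaxel cells, at 109 ± 19.5 FPKM (-0.55 ± 0.11, limma adjusted p = 0.0234). This was lost without the filter on low values (0.0666), with only those 2 groups fitted (0.147), or without combination 2 (0.0772) or combination 3 (0.0988). Neither comparison of a single treatment with control passed: radiation gave -0.36 ± 0.11 (limma adjusted p = 0.0865) and nab-paclitaxel 0.40 ± 0.11 (0.0513). Without the 3 libraries that stood apart both passed, at -0.34 (0.00957) and 0.28 (0.0410). The combination against control gave -0.15, with a 95% interval of -0.40 to 0.10.

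The balance between the H2A.Z genes was therefore computed as the H2AFV share of the summed H2AFV and H2AFZ FPKM. Its level depends on the lengths used, 4749 bases for H2AFV and 2303 for H2AFZ, whose coding transcript H2AFZ-201 has 979. The H2AFV share is thus no measure of the ratio of mRNA molecules. It was 17.2%, 19.8% and 19.0% in combination libraries, 18.1%, 19.5% and 19.5% in nab-paclitaxel libraries, 23.3%, 23.1% and 24.4% in radiation libraries and 23.5%, 27.0% and 25.6% in control libraries. Every library that received the drug lay below every library that did not. The mean share was 18.7 ± 1.31% in combination cells and 25.4 ± 1.79% in control cells, a difference of -6.70 points (exact two-sided permutation test, p = 0.1). The drug alone, at 19.0 ± 0.829%, differed from control by -6.33 points (exact p = 0.1). Combination cells differed from radiation cells, at 23.6 ± 0.678%, by -4.92 points (exact p = 0.1). With 3 libraries against 3 the smallest p this test can give is 0.1, and adjusted over the 10 share tests run it is 0.25, so none could pass. Radiation changed the share by -1.78 points against control (exact p = 0.2), with overlap. The pairs H2AFZ and H2AFV align at 80.5% identity over 395 bases of transcripts H2AFZ-201 and H2AFV-202. The 6 listed H2AFZ pseudogenes and H2AFVP1 averaged under 1 FPKM each.

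**Figure D2:**
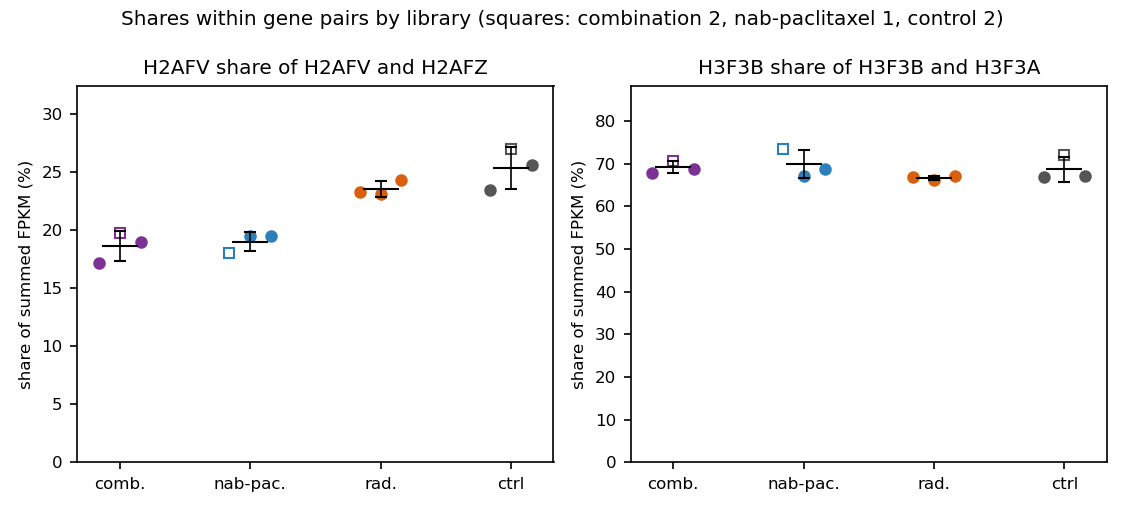
Share of summed FPKM, in percent, held by H2AFV within H2AFV plus H2AFZ (left) and by H3F3B within H3F3B plus H3F3A (right), by library. Lines with bars give the mean and SD of 3 libraries, and squares mark the 3 libraries that stood apart. On the left the 6 drug-treated libraries (17.2% to 19.8%) lie below the 6 others (23.1% to 27.0%), and on the right control libraries overlap every treated group.

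Promoter sequences are shown for H2AFX, H2AFV, H2AFZ and H3F3B, because the first pair fell after radiation and the second pair had the closest values over the libraries of any 2 of the 9 genes. RefSeq (GRCh38.p14) promoters, from 250 bases before to 50 bases after a start site, were matched for 8 of the 9 genes and gave 12 promoters; H1F0 had none. Each is printed on the strand of the gene. Capitals mark CCAAT on either strand (CCAAT or ATTGG), the letters bound by the factor NF-Y, and TTTGAA on either strand (TTTGAA or TTCAAA), the cell cycle homology region found in promoters of many G2/M genes. No match overlaps another.
H2AFX chr11:119095416-119095715, minus strand: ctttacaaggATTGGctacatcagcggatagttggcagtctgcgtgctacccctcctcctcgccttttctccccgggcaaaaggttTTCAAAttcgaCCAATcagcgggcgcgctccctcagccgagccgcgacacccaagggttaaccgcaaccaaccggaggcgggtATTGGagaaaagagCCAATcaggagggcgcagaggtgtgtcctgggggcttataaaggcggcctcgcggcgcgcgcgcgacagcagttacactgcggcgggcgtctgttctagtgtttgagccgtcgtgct
H2AFV chr7:44848038-44848337, minus strand: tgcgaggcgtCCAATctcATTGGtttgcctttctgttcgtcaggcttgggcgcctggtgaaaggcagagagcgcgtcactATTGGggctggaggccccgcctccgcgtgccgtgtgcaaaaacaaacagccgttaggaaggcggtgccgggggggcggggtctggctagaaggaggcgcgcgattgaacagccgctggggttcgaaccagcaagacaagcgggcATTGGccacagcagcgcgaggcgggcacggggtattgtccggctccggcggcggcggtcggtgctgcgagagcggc
H2AFZ chr4:99950226-99950525, minus strand: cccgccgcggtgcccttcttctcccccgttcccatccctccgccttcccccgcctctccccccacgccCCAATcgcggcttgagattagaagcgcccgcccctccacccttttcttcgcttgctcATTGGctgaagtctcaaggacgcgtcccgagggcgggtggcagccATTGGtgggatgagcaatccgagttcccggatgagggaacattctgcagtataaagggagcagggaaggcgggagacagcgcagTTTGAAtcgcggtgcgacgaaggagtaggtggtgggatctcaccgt
H3F3B chr17:75779730-75780029, minus strand: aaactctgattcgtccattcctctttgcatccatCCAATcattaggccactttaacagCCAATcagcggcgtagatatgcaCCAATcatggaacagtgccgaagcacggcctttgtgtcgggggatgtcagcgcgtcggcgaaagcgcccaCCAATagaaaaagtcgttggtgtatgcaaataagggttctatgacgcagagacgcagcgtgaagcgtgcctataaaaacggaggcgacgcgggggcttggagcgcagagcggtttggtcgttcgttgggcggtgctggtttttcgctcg
The CCAAT letters occur 4 times in the promoters of H2AFX, H2AFV and H3F3B and 3 times in those of H2AFZ and H2AFJ. Of 35116 RefSeq promoters of this length 34.6% hold at least 1, 3.26% at least 3 and 0.991% at least 4. In all, 9 of the 12 promoters and 7 of the 8 genes with a promoter hold the letters, H1FX being the exception. TTTGAA was found at -164 from the start site of H2AFX and at 4 of H2AFZ, and in 15.2% of all promoters. The E2F letters TTTCCCGC, TTTGGCGC, TTTGCCGC and TTTCGCGC, searched on both strands and present in 3.31% of promoters, were in none of the 12. These are matches of letters, not measured binding.

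H3F3A and H3F3B encode the same H3.3 protein, which HIRA places at active genes and DAXX with ATRX at telomeres and pericentromeric repeats. H3F3B had 99.1, 93.9 and 96.3 FPKM in combination libraries, 149, 116 and 111 FPKM in nab-paclitaxel libraries, 76.8, 75.6 and 79.0 FPKM in radiation libraries and 94.2, 104 and 93.1 FPKM in control libraries. Radiation libraries formed a tight low group and nab-paclitaxel libraries a wide high group, with combination and control libraries together between them. None of the comparisons with control passed for H3F3B: the log2 fold change was -0.01 ± 0.10 for the combination (limma adjusted p = 0.962), 0.35 ± 0.10 for nab-paclitaxel (0.0578) and -0.33 ± 0.10 for radiation (0.0973). The combination stood above radiation in every library, at 96.4 ± 2.60 against 77.1 ± 1.72 FPKM (0.32 ± 0.10, limma adjusted p = 0.0862). Without the 3 libraries that stood apart, H3F3B passed against control with nab-paclitaxel (0.27, 0.0103) and with radiation (-0.28, 0.00392), and between combination and radiation (0.34, 0.00164). The combination gave -0.36 ± 0.10 against nab-paclitaxel (limma adjusted p = 0.0872), which passed without those 3 libraries (-0.21, 0.0269) and with TPM scaling (-0.37, 0.0242). With TPM scaling radiation also passed against control (-0.31, 0.0415).

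H3F3A had 46.8, 38.9 and 43.6 FPKM in combination libraries, 53.8, 56.5 and 50.2 FPKM in nab-paclitaxel libraries, 38.1, 38.5 and 38.7 FPKM in radiation libraries and 46.7, 40.3 and 45.4 FPKM in control libraries. The order of the groups was that of H3F3B, over a narrower range. Against control the log2 fold change was -0.04 ± 0.09 for the combination (limma adjusted p = 0.809), 0.27 ± 0.09 for nab-paclitaxel (0.0746) and -0.19 ± 0.09 for radiation (0.262). Without the 3 libraries that stood apart it passed with radiation (-0.25, limma adjusted p = 0.0184) and between combination and radiation (0.23, 0.0220; with all libraries 0.16, 0.300). The H3F3B share of summed H3F3B and H3F3A FPKM was 69.2 ± 1.43% in combination cells, 69.9 ± 3.27% in nab-paclitaxel cells, 66.7 ± 0.439% in radiation cells and 68.7 ± 2.93% in control cells. Combination and radiation cells differed in this share without overlap, by 2.44 points (exact two-sided permutation test, p = 0.1, the smallest it can give). The share depends on the lengths used, 6134 bases for H3F3B and 3146 for H3F3A. It also depends on how reads were placed between H3F3A and its pseudogenes. Of the fragments at either, H3F3A held 58.1% to 65.7% in combination libraries and 67.2% to 68.4% in radiation libraries. The part of this in the share was not tested. The transcripts H3F3A-201 and H3F3B-201 align at 78.6% identity over 412 bases.

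The values of H3F3A are uncertain, because reads were also counted at its processed pseudogenes, copies of the mRNA inserted elsewhere in the genome. H3F3AP4, a pseudogene of 411 bases, is 100% identical over its 411 bases to transcript H3F3A-201 and averaged 135 FPKM over the 12 libraries. H3F3AP6 is 99.27% identical and averaged 45.7 FPKM; the other 4 listed H3F3A pseudogenes averaged under 1 FPKM. In fragments, H3F3A held 65.7%, 58.1% and 62.9% of the sum of the gene and its 6 pseudogenes in combination libraries, 59.1%, 69.9% and 67.4% in nab-paclitaxel libraries, 67.2%, 68.4% and 67.6% in radiation libraries and 68.5%, 62.7% and 70.4% in control libraries. The lowest share of its group fell in combination 2, nab-paclitaxel 1 and control 2, the 3 libraries that stood apart; the part of this in the results for H3F3A was not tested beyond the summed value. With the fragments summed, an alternative chosen after the data were seen, H3F3A rose with nab-paclitaxel against control (0.31 ± 0.08, limma adjusted p = 0.0361). The summed value gave 0.07 ± 0.08 for the combination (limma adjusted p = 0.550) and -0.21 ± 0.08 for radiation (0.180) against control. The value counted at H3F3AP6 was higher in combination cells than in control cells (0.47 ± 0.15, limma adjusted p = 0.0478) and than in radiation cells (0.59 ± 0.15, 0.0409). At H3F3AP4 the same comparisons gave 0.22 ± 0.17 (limma adjusted p = 0.398) and 0.47 ± 0.17 (0.119). Given the identity to H3F3A, neither value can be credited to the pseudogene alone. The 2 listed H3F3B pseudogenes averaged 0.152 FPKM and 0 FPKM.

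**Figure D3:**
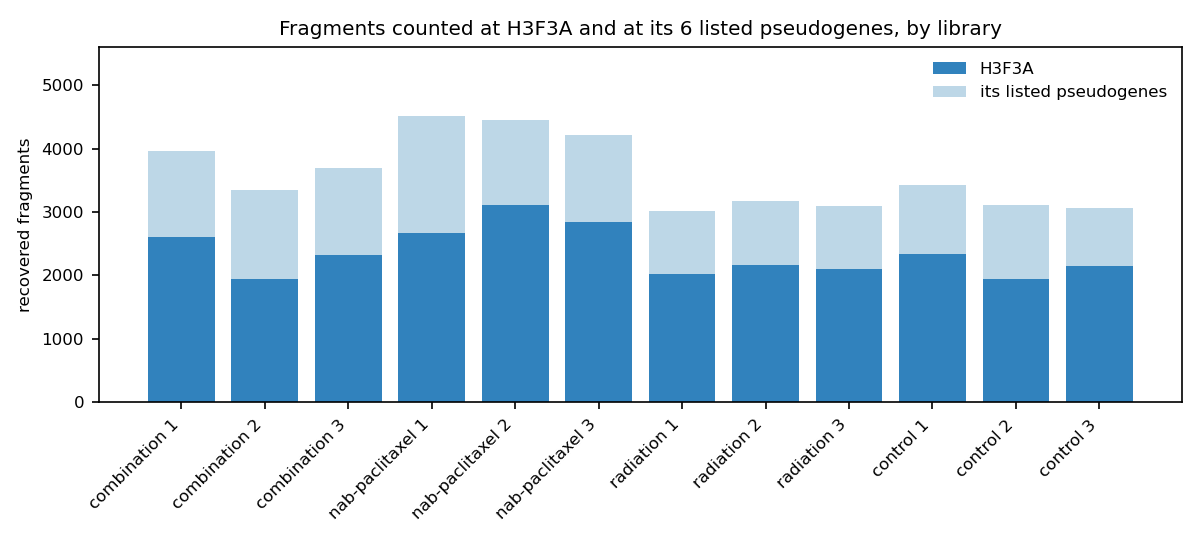
Recovered fragments counted at H3F3A (dark) and at its 6 listed pseudogenes (light) in each of the 12 libraries; bars are stacked from 0 and have no error, since each is 1 library. H3F3A holds between 58.1% (combination 2) and 70.4% (control 3) of each bar.

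The linker histones H1.0 and H1.10 bind the DNA between nucleosomes. H1F0 had 319.7, 259.8 and 303 FPKM in combination libraries, 311, 381 and 336 FPKM in nab-paclitaxel libraries, 203, 217 and 206 FPKM in radiation libraries and 296, 219 and 264 FPKM in control libraries. Radiation libraries were the lowest and varied least, and the combination overlapped control. Each combination library was above the control library of the same number, though the labels tie these numbers to no shared day or batch. H1F0 was higher in combination cells, at 294 ± 31.0 FPKM, than in radiation cells, at 209 ± 7.64 FPKM (0.49 ± 0.12, limma adjusted p = 0.0358). The call was lost with each other scaling: size factors over the tested genes (0.45, limma adjusted p = 0.0518), TPM scaling (0.44, 0.150) and quantile normalization (0.23, 0.340), of which only the last changed the log2 fold change by over 1.5 times. It was also lost with no filter (limma adjusted p = 0.102) or with the replicate number as a block (0.0695), both at 0.49. Without radiation 1, 2 or 3 it was lost (0.131, 0.0928 and 0.115) at a log2 fold change of 0.47 to 0.52, and without combination 1 or 3 (0.120 and 0.128) at 0.43 and 0.47. Against control H1F0 gave 0.19 ± 0.12 for the combination (limma adjusted p = 0.304, and 0.359 with the replicate number as a block), 0.40 ± 0.12 for nab-paclitaxel (0.0618) and -0.30 ± 0.12 for radiation (0.194). Without the 3 libraries that stood apart the drug (0.36, 0.0246) and radiation (-0.42, 0.00632) passed.

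H1FX had 41.2, 24.1 and 29.4 FPKM in combination libraries, 45.5, 65.9 and 50.5 FPKM in nab-paclitaxel libraries, 33.5, 41.1 and 35.4 FPKM in radiation libraries and 49.9, 32.5 and 61.6 FPKM in control libraries. Its SE was the largest of the 9 genes, and the only non-overlapping pair among these comparisons was the combination below nab-paclitaxel. None of its comparisons passed: the combination gave -0.77 ± 0.24 against nab-paclitaxel (limma adjusted p = 0.107) and -0.57 ± 0.24 against control (0.103), and radiation gave -0.34 ± 0.24 against control (0.494). Combination 2 and control 2 had the lowest H1FX values of their groups, and without control 2 the combination passed against control (-0.83, 0.0204) and against nab-paclitaxel (-0.77, 0.0443). Without all 3 libraries that stood apart it passed with radiation (-0.59, 0.0429) and with the combination (-0.65, 0.0266) against control. Among the replication-dependent linker histones 1 of 6 listed genes, HIST1H1C, which encodes H1.2, was expressed highly enough to be tested. It rose with the combination to 63.1 ± 6.36 FPKM, with nab-paclitaxel to 51.6 ± 7.38 FPKM and with radiation to 53.6 ± 3.09 FPKM, against 31.7 ± 3.02 FPKM in control cells (0.97, 0.68 and 0.74, limma adjusted p = 2.98e-04, 0.00770 and 0.00428). HIST genes have close copies of each other, so the value of a single one is uncertain. Whether mRNAs without a poly(A) tail were captured was not tested, so the values may cover only part of the HIST1H1C mRNA.

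MacroH2A1 carries a large macro domain and is enriched on the inactive X chromosome and at repressed genes. H2AFY had 9.54, 9.40 and 9.02 FPKM in combination libraries, 10.0, 9.18 and 9.24 FPKM in nab-paclitaxel libraries, 8.90, 8.64 and 8.95 FPKM in radiation libraries and 9.13, 9.63 and 8.94 FPKM in control libraries. No comparison passed, and the 95% intervals bound the change: -0.13 to 0.16 for the combination, -0.11 to 0.18 for nab-paclitaxel and -0.20 to 0.09 for radiation, each against control. The table has 1 value per gene, so the splice forms macroH2A1.1 and macroH2A1.2 were not distinguished. H2A.J, which accumulates in senescent human fibroblasts, was the least abundant. H2AFJ had 3.05, 2.36 and 2.46 FPKM in combination libraries, 2.44, 3.13 and 2.19 FPKM in nab-paclitaxel libraries, 2.81, 2.35 and 2.49 FPKM in radiation libraries and 2.00, 1.44 and 2.29 FPKM in control libraries. The mean was higher in each treated group, without passing: 0.32 ± 0.14 for the combination (limma adjusted p = 0.109), 0.30 ± 0.14 for nab-paclitaxel (0.179) and 0.30 ± 0.14 for radiation (0.258). Adding 1 to such low FPKM understates the fold change. Its combination and radiation libraries all lay above the 3 control libraries, while 1 nab-paclitaxel library (2.19 FPKM) lay within the control range. How many of all genes lay above control in this way was not counted.

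Radiation against control, which gives the effect of 6 Gy alone, lowered 2 of the 9 genes, H2AFX and H2AFV, and raised 0. Of all genes tested 5.93% passed in this comparison (337 higher, 470 lower). The median log2 fold change was -0.33 over the 9 genes and -0.02 over all genes, or -0.04 over all genes averaging at least 5 FPKM. The 3 radiation libraries lay below the 3 control libraries for 6 of the 9 genes, and for 16.0% of all genes tested. For H2AFJ they lay above, a direction not counted over all genes. Without radiation 2 the number passing was 0, without nab-paclitaxel 1 it was 4, and without the 3 libraries that stood apart it was 7, all lower (H2AFZ, H3F3A, H3F3B, H1F0 and H1FX besides those 2).

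Nab-paclitaxel against control gives the effect of the drug alone, and 0 of the 9 genes passed limma's adjusted threshold, against 8.82% of all genes tested. At an unadjusted p under 0.05 there were 6 of the 9, and 3611 of the 13609 genes tested. The median log2 fold change was 0.30 over the 9 genes and 0.04 over all genes, or 0.10 over all genes averaging at least 5 FPKM. The set of all genes was not matched to the 9 genes in abundance. The 3 drug libraries lay above the 3 control libraries for 5 of the 9 genes (H2AFX, H2AFZ, H3F3A, H3F3B and H1F0), and for 15.5% of all genes. H2AFZ and H3F3B passed with a mean of at least 5 FPKM as the filter or with TPM scaling, and H2AFZ, H3F3B and H1F0 with limma's voom on recovered fragments or without the 3 libraries that stood apart. Without nab-paclitaxel 3, H2AFX, H2AFZ and H3F3B passed, and without control 1, H1F0 did (limma adjusted p = 0.0466). Over all genes 966 passed with the 5 FPKM filter, 818 with TPM scaling, 1306 with voom and 1836 without the 3 libraries. The count was 1074 without nab-paclitaxel 3 and 783 without control 1, against 1200 in the main fit. In this comparison 61.3% of the genes called were higher, which became 49.3% with size factors over the tested genes and 48.3% with quantile normalization. With the filter at 5 FPKM it became 77.6%. Quantile normalization brought the log2 fold change of H2AFX to its lowest, 0.13.

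Combination against control gives the effect of both agents together, and 2 of the 9 genes passed, H2AFX and H2AFV, both lower. In this comparison 22.9% of all genes tested passed, so that a count of 2 is close to the background. The median log2 fold change was -0.04 over the 9 genes and 0.00 over all genes, or 0.05 over all genes averaging at least 5 FPKM. The 3 combination libraries lay below the 3 control libraries for those 2 genes, and for 17.8% of all genes. For H2AFJ they lay above, a direction not counted over all genes.

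Combination against radiation gives the effect of the drug in irradiated cells, and 1 of the 9 genes passed, H1F0, which was higher. Of all genes tested 7.75% passed, so that a count of 1 is close to the background. The 9 genes had a median of 0.13 and all genes a median of 0.03, or 0.09 over all genes averaging at least 5 FPKM. The 3 combination libraries lay above the 3 radiation libraries for 5 of the 9 genes (H2AFZ, H2AFY, H3F3A, H3F3B and H1F0), and for 23.9% of all genes. For H2AFV they lay below, a direction not counted over all genes. Under quantile normalization the log2 fold change of H2AFX (-0.04) and of H3F3A (-0.01) had the opposite sign, and H2AFV passed there as lower (-0.33, limma adjusted p = 0.0443). H3F3B passed without nab-paclitaxel 1 (0.0106). Of the genes called 62.0% were higher, which became 50.9% with size factors and 77.0% with a filter at 5 FPKM. Without the 3 libraries that stood apart 5 of the 9 passed, with H2AFZ, H3F3A, H3F3B and H1F0 higher and H2AFV lower. Of all genes tested 4128 passed in that fit, against 1055 in the main fit.

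Combination against nab-paclitaxel gives the effect of radiation in drug-treated cells, and 3 of the 9 genes passed, H2AFX, H2AFV and H2AFZ, all lower. Of all genes tested 3.92% passed. The median was -0.36 over the 9 genes and -0.02 over all genes, or -0.03 over all genes averaging at least 5 FPKM. The 3 combination libraries lay below the 3 nab-paclitaxel libraries for 6 of the 9 genes (the 3 above with H3F3A, H3F3B and H1FX), and for 12.3% of all genes. Of the genes called 31.0% were higher, which became 41.8% with quantile normalization. The number of the 9 that passed was 0 when only these 2 groups were fitted, 1 without combination 3 and 5 without control 2, where H3F3A and H1FX were added. Of all genes tested 93, 177 and 734 passed in these fits, against 533 in the main fit.

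The interaction asks whether the effect of the combination differs from the sum of its parts on the log2 scale. It passed for 0 of the 9 genes and for 0% of all genes tested (limma), with 0 of the 9 and 443 of all genes at an unadjusted p under 0.05. Its 95% interval was -0.53 to 0.11 for H2AFX, -0.38 to 0.23 for H2AFV, -0.53 to 0.17 for H2AFZ and -0.30 to 0.47 for H1F0, and departures within these intervals could not be told from 0 with these libraries. The comparisons above share control, radiation or nab-paclitaxel libraries, and their values are set side by side without a test between them.

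**Figure D4:**
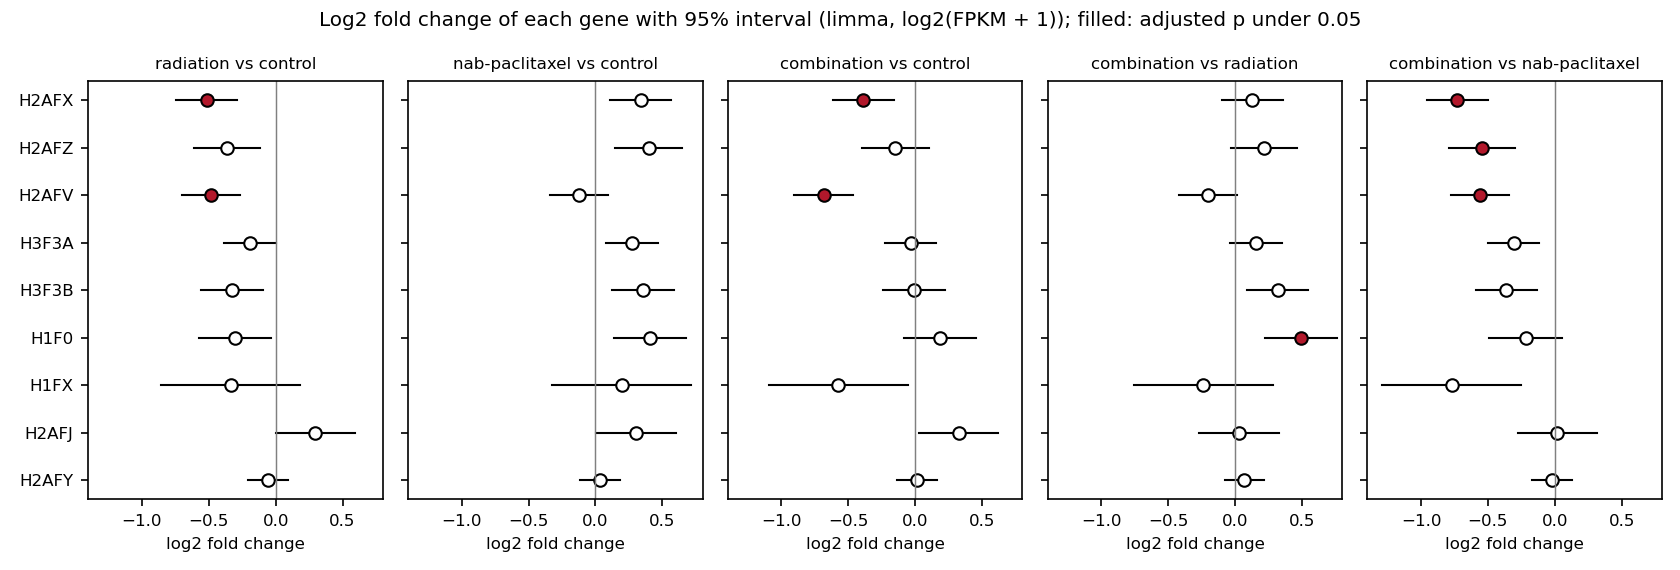
Log2 fold change (limma, log2(FPKM + 1)) of each of the 9 genes in 5 comparisons, one panel each, with 95% intervals as horizontal lines. Filled points passed an adjusted p under 0.05: H2AFX and H2AFV with radiation and with the combination against control, H1F0 between combination and radiation, and H2AFX, H2AFZ and H2AFV between combination and nab-paclitaxel.

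Genes of the cell cycle moved in these samples too, and their part in the results for the 9 genes was not tested. Of 8 G2/M genes 8 fell with radiation (median log2 fold change -0.81), 6 rose and 0 fell with nab-paclitaxel (0.48), and 2 fell and 0 rose with the combination (-0.17), all against control. BIRC5, which encodes survivin, was at 9.69 ± 0.338 FPKM in combination cells, 20.0 ± 2.16 FPKM in nab-paclitaxel cells, 7.09 ± 0.810 FPKM in radiation cells and 14.4 ± 0.215 FPKM in control cells. Its fall with radiation was -0.93 ± 0.09 (limma adjusted p = 4.89e-04). CDC20, an activator of the anaphase-promoting complex, rose with nab-paclitaxel (0.76 ± 0.08, limma adjusted p = 8.21e-04) and fell with radiation (-0.73 ± 0.08, 5.66e-04). Of 7 S-phase genes, the MCM helicase subunits and PCNA, 6 fell and 0 rose with radiation (median -0.57), 3 rose and 0 fell with nab-paclitaxel (0.22), and 5 fell and 1 rose with the combination (-0.44). MCM3 was at 19.1 ± 1.03 FPKM in combination cells and 19.5 ± 0.846 FPKM in radiation cells, against 36.1 ± 1.95 FPKM in nab-paclitaxel cells and 34.5 ± 1.65 FPKM in control cells.

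New histones are carried to replication forks by their own chaperones. Of 10 genes of replication-coupled histone supply 6 fell and 0 rose with radiation (median -0.40), 1 fell with nab-paclitaxel (-0.02) and 6 fell with the combination (-0.44). NASP, a chaperone of H3 and H4, fell with the combination (-0.49 ± 0.07, limma adjusted p = 5.95e-04) and with radiation (-0.44 ± 0.07, 0.00388). ASF1B, which hands H3 and H4 to the CAF-1 complex, fell with radiation to 11.5 ± 0.773 FPKM, against 17.7 ± 1.75 FPKM in control cells (-0.58 ± 0.09, limma adjusted p = 0.00486). RBBP4, a CAF-1 subunit, fell with radiation (-0.47 ± 0.09, limma adjusted p = 0.00930). HELLS, a chromatin remodeller, and CASP8AP2, a factor of histone locus bodies, both fell with the combination by -0.83 (limma adjusted p = 8.54e-04 and 0.00120). CASP8AP2 was the gene of this list that fell with nab-paclitaxel (-0.53 ± 0.13, limma adjusted p = 0.0304).

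Of 7 genes of H3.3 deposition 0 passed with radiation, and 1 fell with nab-paclitaxel and 1 with the combination. This was ATRX, the remodeller that works with DAXX, at 4.26 ± 0.565 FPKM in combination cells, 3.93 ± 0.524 FPKM in nab-paclitaxel cells, 6.98 ± 0.276 FPKM in radiation cells and 7.90 ± 1.62 FPKM in control cells. Its log2 fold change was -0.75 ± 0.13 for the combination (limma adjusted p = 0.00234) and -0.84 ± 0.13 for nab-paclitaxel (0.00589) against control. Of the 10 tested genes of H2A.Z deposition and removal 0 passed with radiation, 0 with nab-paclitaxel and 1 with the combination. That gene was DMAP1, a subunit of the SRCAP and p400 complexes, at 4.0 ± 0.351 FPKM in combination cells against 7.41 ± 0.930 FPKM in control cells (-0.75 ± 0.09, limma adjusted p = 3.55e-04). ANP32E, the chaperone that removes H2A.Z, gave -0.57 ± 0.17 with radiation (limma adjusted p = 0.0771). Among 6 genes of FACT and other transcription-coupled chaperones, SSRP1, the smaller FACT subunit, fell with the combination (-0.27 ± 0.09, limma adjusted p = 0.0440) and with radiation (-0.42 ± 0.09, 0.0170). SPTY2D1, a chaperone of H3 and H4, rose with the combination (0.55 ± 0.09, limma adjusted p = 0.00152) and with nab-paclitaxel (0.35 ± 0.09, 0.0331).

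The kinases, phosphatases and readers of H2A.X formed a further list. Of 10 tested genes of H2A.X phosphorylation and reading, 1 rose and 2 fell with the combination, 1 rose and 1 fell with nab-paclitaxel, and 1 rose and 1 fell with radiation. PPM1D, the phosphatase that removes the mark, rose to 22.0 ± 1.21 FPKM in combination cells and 19.6 ± 0.516 FPKM in radiation cells, against 12.7 ± 0.504 FPKM in control cells. Its log2 fold change was 0.75 ± 0.07 for the combination (limma adjusted p = 8.55e-05) and 0.59 ± 0.07 for radiation (0.00111). BAZ1B, a kinase that phosphorylates another residue of H2A.X, fell with the combination (-0.33 ± 0.09, limma adjusted p = 0.0236) and with radiation (-0.41 ± 0.09, 0.0217). MDC1, which binds phosphorylated H2A.X, fell with the combination (-0.39 ± 0.12, limma adjusted p = 0.0392). With nab-paclitaxel the kinase ATM fell (-0.52 ± 0.12, limma adjusted p = 0.0228) and PPP4C, a phosphatase subunit, rose (0.34 ± 0.09, 0.0397). Of 12 further replacement variants 2 were expressed highly enough to be tested. CENPA, the H3 variant of centromeres, was at 2.82 ± 0.473 FPKM in combination cells, 5.42 ± 0.804 FPKM in nab-paclitaxel cells, 2.21 ± 0.298 FPKM in radiation cells and 3.76 ± 0.600 FPKM in control cells, and fell with radiation (-0.57 ± 0.13, limma adjusted p = 0.0289). H2AFY2, which encodes macroH2A2, passed in 0 of the 3 comparisons with control.

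Likeness of pattern was measured as the root mean square difference of log2(FPKM + 1), each gene centred on its own mean, over the 12 libraries; it is a description, and the points share libraries and depth. Among the 9 genes the closest pair was H2AFZ with H3F3B (0.0838), followed by H2AFX with H2AFZ (0.138). Over all tested genes the closest to H2AFV were GARS (0.0661), MIS12 (0.0692) and MAGT1 (0.0812). The closest to H2AFX were RPSA (0.112), WDR34 (0.113) and CDC6 (0.121).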

How the data were processed

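Libraries came from a SMARTer kit for mRNA sequencing, per the labels' protocols, and hg38 is the build that the submitters' processing notes name. No source used here gives the aligner, the counter or the strand setting. The authors deposited FPKM per gene together with the gene lengths used. Times its length, each FPKM value was a whole multiple of what 1 fragment is worth in its library (100% of values, tolerance 0.05), which gives totals of 14840283 to 17992242 fragments and shows a scaling between libraries in the deposited FPKM. All 58735 gene IDs are in GENCODE 29, and 0 value columns were left unused.

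Groups were read off the labels. Tests used limma 3.58.1 (R 4.3.3) on log2 of FPKM plus 1, with a trend of the variance over the mean and the spread pooled over the 4 groups, for the 13609 genes averaging 1 FPKM or more (8 residual and 3.39 prior degrees of freedom). They were two-sided, with Benjamini-Hochberg adjustment per contrast and a threshold of 0.05, and the fit was tested on simulated data. Shares within a gene pair were compared with an exact permutation test. The main fit had no replicate block. Same-numbered control and combination libraries deviated together from their group means (r = 0.233, 0.543 and 0.172), while the labels give the numbers no batch or day.

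Members and gene lists were chosen with earlier results of these data known, and so was leaving out the 3 libraries that stood apart. All 9 members were named in every comparison. Of each list, at most 3 called genes of smallest p per comparison with control were named, or at most the 2 most expressed where none was called, and some were left out for length. Alternatives covered the pseudocount (0.1), the filter (none, or 5 FPKM), scaling (size factors, TPM, quantile normalization), the replicate block, no trend, voom on recovered fragments, fits of only the groups compared, each library left out, the 3 that stood apart left out, and H3F3A summed with its pseudogenes. Transcripts were aligned with blastn 2.17.0, and promoters came from RefSeq GRCh38.p14.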

Additional observations from a re-analysis of the deposited data

How the results depend on the processing

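Of the comparisons with a call, 159 alternative values kept it and 25 lost it with the same sign. Of those without a call, 978 stayed without one, 38 gained one and 33 changed sign. The cause of these changes was not tested unless the alternative itself names it, such as fewer libraries or genes.

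The number of the 9 genes that passed for nab-paclitaxel against control (0) became 2 with a filter at 5 FPKM or TPM scaling, 3 with voom or without the 3 libraries that stood apart, and 1 with H3F3A summed with its pseudogenes. For radiation against control (2) it became 3 with TPM scaling or only the groups compared (H2AFZ, limma adjusted p = 0.0493) and 7 without those 3 libraries. For the combination against control (2) it became 3 without them. Between combination and radiation (1) it became 0 with no filter, size factors, TPM scaling or the replicate block, 3 with only the groups compared and 5 without the 3 libraries. Between combination and nab-paclitaxel (3) it became 0 with only the groups compared, 2 with no filter, and 4 with TPM scaling or without the 3 libraries. The replicate block changed no other call of the 9 genes. With 1 library left out at a time, the number ranged from 0 to 4 for radiation and from 0 to 3 for nab-paclitaxel against control. It ranged from 1 to 3 for the combination against control, from 0 to 2 for combination against radiation and from 1 to 5 for combination against nab-paclitaxel.

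Changes of sign were small. H2AFY gave -0.00597 (size factors) and -0.0248 (quantile normalization) with nab-paclitaxel against control. With the combination against control it gave -0.00362 (size factors), -0.0198 (TPM scaling) and -0.0144 (quantile normalization). Between combination and nab-paclitaxel it gave 0.00235 (size factors), 0.0105 (quantile normalization) and 0.00872 (without the 3 libraries). For combination against control H3F3B gave 0.0608 without the 3 libraries and H3F3A 0.0738 with its pseudogenes. Between combination and radiation H2AFJ gave -0.00293 (size factors) and -0.0120 (TPM scaling), and quantile normalization gave -0.0418 for H2AFX and -0.00589 for H3F3A. The interaction without the 3 libraries gave 0.0193 for H3F3A and 0.0635 for H3F3B.

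With 1 library left out at a time, the range against control with nab-paclitaxel was -0.00227 to 0.0617 for H2AFY and -0.0556 to 0.396 for H1FX. With the combination against control it was -0.00864 to 0.0401 for H2AFY, -0.0977 to 0.0351 for H3F3A and -0.0383 to 0.0421 for H3F3B. It was -0.0560 to 0.0788 for H2AFJ between combination and radiation. Between combination and nab-paclitaxel it was -0.0417 to 0.0146 for H2AFY and -0.0642 to 0.125 for H2AFJ. For the interaction it was -0.159 to 0.0186 for H2AFV, -0.116 to 0.0957 for H3F3B and -0.0137 to 0.201 for H1F0.

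Over all genes, the counts called against control moved by over 1.5 times as follows. Radiation (807) gave 531 with the replicate block, 2947 without the 3 libraries and 320 to 1305 with 1 library left out. Nab-paclitaxel (1200) gave 579 with no filter, 789 with quantile normalization, 701 with the block, 8 with only the groups compared, 1836 without the 3 libraries and 524 to 1181 with 1 left out. The combination (3111) gave 2018 with a filter at 5 FPKM, 5049 without the 3 libraries and 1964 to 3926 with 1 left out. Combination against radiation (1055) gave 577 with no filter, 606 with the block, 2502 with only the groups compared, 4128 without the 3 libraries and 218 to 1879 with 1 left out. Combination against nab-paclitaxel (533) gave 276 with no filter, 306 with the block, 93 with only the groups compared, 1301 without the 3 libraries and 177 to 734 with 1 left out. The interaction (0) gave 5 with no filter. H2AFJ, at 74 to 184 fragments per library, has the thinnest depth of the 9 genes, and for H3F3A the assignment of fragments between gene and pseudogenes limits the values.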
